A study of Caenorhabditis elegans with 11 samples.

Results

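The 5 superoxide dismutase genes of Caenorhabditis elegans, sod-1 to sod-5, and its 3 catalase genes, ctl-1 to ctl-3, are described here across 5 groups of whole adult worms. The members were picked by gene symbol, with earlier results of these data known, and all 8 were found among the 42048 genes of the deposited count tables. The series asked what bacterial indole and the worm gene ahr-1 do to gene expression as worms age. All worms had been kept at 16 °C on their bacterial diet from the embryo on, and each library came from a pool of about 150 adults. The labels call the libraries of a group biological replicates, and p-values measure only the spread between such pools.

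Late worms (12 days) were wild type N2 on tnaA bacteria (n = 2), ahr-1(ia3) mutants on K12 bacteria (n = 2) and N2 on K12 (n = 2). Early worms were N2 on tnaA (n = 2) and N2 on K12 (n = 3). Their age is given as 3 days in the labels and as 2 days of adulthood in the design text. K12 is an indole-producing strain of Escherichia coli. In the tnaA strain, a deletion in K12 has removed tryptophanase, which bacteria need to make indole from tryptophan. The ia3 allele is a loss-of-function allele of ahr-1, which encodes the worm aryl hydrocarbon receptor, and early ahr-1 worms were not analysed here.

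Superoxide, a by-product of respiration and other oxidations, is turned by superoxide dismutases into hydrogen peroxide and oxygen, and catalases split hydrogen peroxide into water and oxygen. The dismutases differ in their metal and their place in the cell: sod-1 and sod-5 encode cytosolic copper/zinc enzymes, sod-4 an extracellular copper/zinc enzyme, and sod-2 and sod-3 mitochondrial manganese enzymes. Of the catalases, ctl-1 encodes a cytosolic and ctl-2 a peroxisomal enzyme, while ctl-3 is known from pharyngeal muscle and neurons. Several members, sod-3 foremost, are known targets of the insulin-pathway transcription factor DAF-16.

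Libraries held between 8.31 and 15.3 reads in genes in units of 1e6. Levels are given as CPM, counts per 1e6 such reads after TMM scaling, in which a single read weighed 0.0572 to 0.103. Reads outside genes made up 9.26 to 14.8% of late tnaA libraries, 11.6 to 13.8% of late ahr-1 libraries, 8.27 to 8.56% of late K12 libraries and 6.14 to 7.19% of early libraries. Transcripts of ahr-1 itself averaged 1.31 ± 0.391 CPM in late ahr-1 worms and 2.66 ± 0.767 CPM in late N2 worms on K12 (SD, n = 2 each). The libraries did not overlap, and the difference was not called (log2 fold change -1.03 ± 0.47, edgeR adjusted p = 0.130), so the gene's level is a weak check of the label. In whole worms, fewer cells of a type and less RNA per cell cannot be told apart.

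Per kilobase of exon, sod-1 and sod-2 were the most abundant of the dismutases in every library and ctl-2 the most abundant catalase. The level of sod-1 ran from 160 to 193 CPM per kb in the 6 late libraries and from 289 to 320 CPM per kb in the 5 early libraries. That of sod-2 ran from 93.9 to 116 CPM per kb in late and from 174 to 190 CPM per kb in early libraries. Then came sod-4, with 39.3 to 43.5 CPM per kb in late and 10.4 to 11.5 CPM per kb in early libraries. The minor mitochondrial gene sod-3 (0.804 to 1.86 CPM per kb in late and 4.15 to 5.72 in early libraries) and the minor cytosolic gene sod-5 (1.05 to 2.62 CPM per kb in late and 0 to 0.330 in early libraries) stood far below. In all early libraries and in both late K12 libraries sod-3 stood above sod-5, and in all late tnaA and late ahr-1 libraries below it.

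The catalase ctl-2 ran from 24.3 to 42.4 CPM per kb in late and from 25.4 to 29.7 CPM per kb in early libraries. Its neighbours were lower in all libraries, ctl-3 with 5.68 to 9.22 CPM per kb in late and 2.40 to 3.60 in early libraries, and ctl-1 with 1.90 to 3.28 CPM per kb in late and 1.15 to 2.32 in early libraries. The 3 catalase genes lie one after the other on the same strand of chromosome II and are close in sequence, so reads split between them are uncertain.

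**Figure D1:**
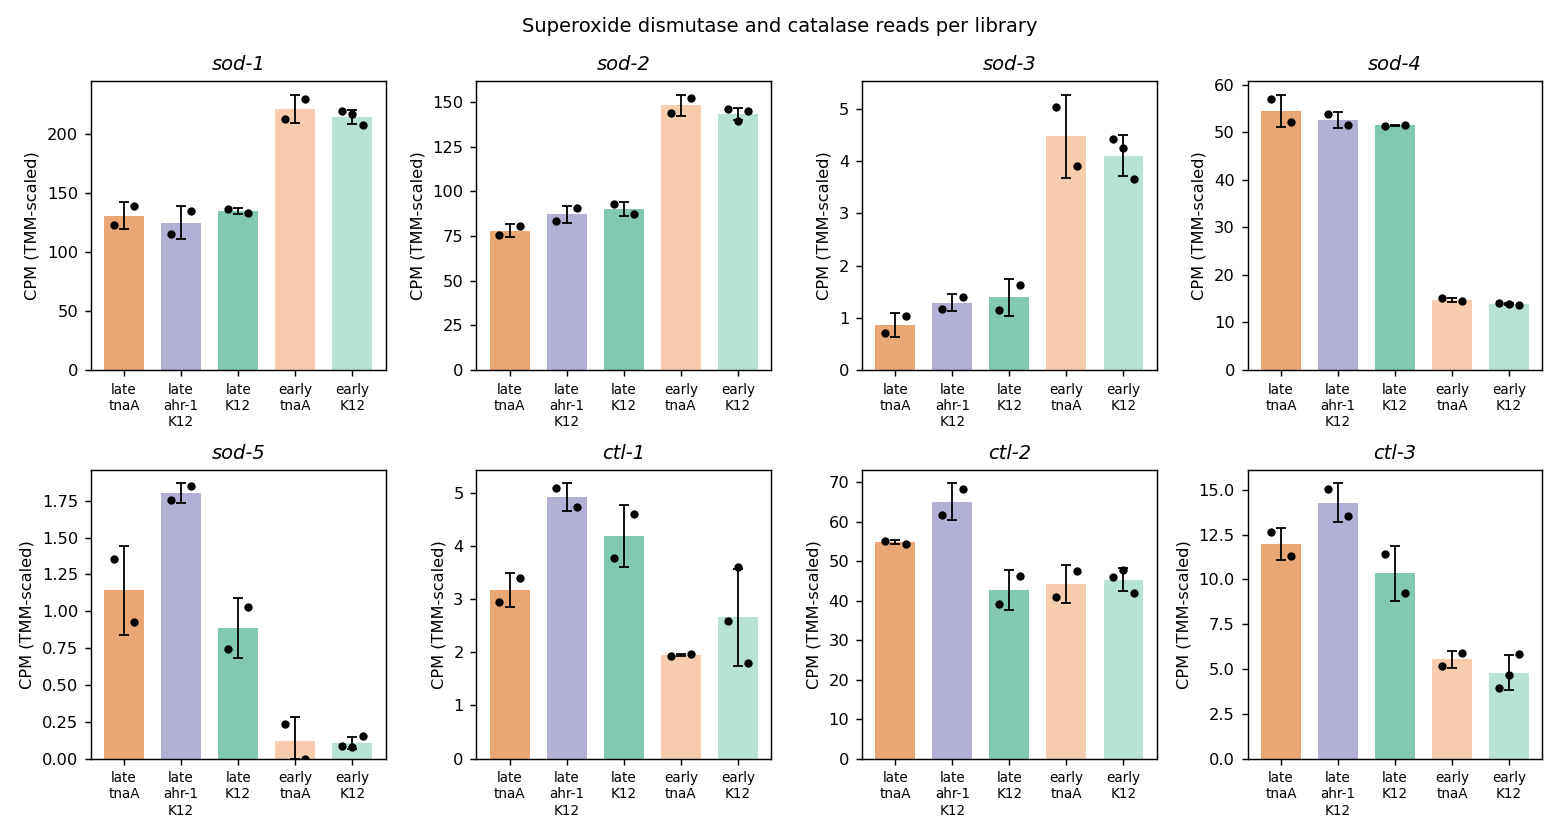
TMM-scaled CPM of each member by group (bars: mean; whiskers: SD; points: libraries, n = 2 per group and 3 for early K12; each gene has its own axis, and a whisker below 0 is not drawn). sod-1, sod-2 and sod-3 stand lower and sod-4, sod-5 and ctl-3 higher in all late libraries than in all early ones, while ctl-2 is highest in late ahr-1 worms.

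Late and early worms differed in most of these genes, and the members moved in both directions. The cytosolic sod-1 and the mitochondrial pair sod-2 and sod-3 fell in late worms, whereas extracellular sod-4, cytosolic sod-5 and the catalase ctl-3 rose, on both diets. On tnaA, 4 members rose and 3 fell of 8, where 72% of the 15133 genes tested were called (35.6% higher and 36.3% lower). On K12, the counts were also 4 and 3 of 8, where 69.6% of all genes were called (32.9% higher and 36.7% lower), so changed members were about as common as changed genes in general. The median log2 fold change of the 8 members was 0.50 on tnaA and 0.28 on K12, against 0.02 and -0.04 over all genes tested. All 6 late libraries, ahr-1 worms included, lay outside the range of all 5 early libraries for 6 of the 8 members, and the same held for 62.9% of all genes tested.

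Transcripts of sod-1, the main cytosolic dismutase, stood at 123 and 139 CPM in late tnaA worms, 115 and 135 CPM in late ahr-1 worms and 137 and 133 CPM in late K12 worms. In early worms they stood at 213 and 230 CPM on tnaA and at 219, 217 and 208 CPM on K12. Every late library was below every early one, and the 3 late groups overlapped. The log2 fold change from edgeR's quasi-likelihood test was -0.77 ± 0.08 on tnaA (SE, Benjamini-Hochberg adjusted p = 1.06e-06) and -0.67 ± 0.07 on K12 (adjusted p = 1.72e-06). The noncoding gene C15F1.13, which shares exon bases with sod-1 on the opposite strand, had 0 reads in all libraries together.

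The main mitochondrial dismutase gene sod-2 showed 75.3 and 80.5 CPM in late tnaA worms, 83.6 and 90.5 CPM in late ahr-1 worms and 93.1 and 87.5 CPM in late K12 worms. Early worms showed 144 and 152 CPM on tnaA and 146, 140 and 145 CPM on K12. The ages did not overlap, and the late tnaA libraries were the lowest pair of all. The log2 fold change was -0.93 ± 0.06 on tnaA (edgeR adjusted p = 1.95e-08) and -0.67 ± 0.06 on K12 (adjusted p = 2.08e-07). The gene dpt-1 shares exon bases with sod-2 on the opposite strand. It fell likewise, by 1.003 ± 0.06 on tnaA and by 0.81 ± 0.05 on K12 (log2). With the strand setting of the counting unknown, reads in the shared bases may not be told apart. This concerns the shared bases only, not the rest of either gene. Over all genes, reads counted as ambiguous made up 0.267 to 0.296% in the 11 libraries. The share of sod-2 reads that lie in the shared bases was not tested.

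The inducible mitochondrial gene sod-3 was scarce in late worms. It had 0.708 and 1.03 CPM in late tnaA worms (12 and 10 reads), 1.17 and 1.404 CPM in late ahr-1 worms (14 and 19 reads) and 1.14 and 1.63 CPM in late K12 worms (20 and 27 reads). Early worms had 5.04 and 3.92 CPM on tnaA (65 and 48 reads) and 4.42, 4.25 and 3.66 CPM on K12 (53, 53 and 47 reads). Late and early libraries did not overlap. Its change was the deepest fall among the members, -2.40 ± 0.33 on tnaA (edgeR adjusted p = 1.95e-05) and -1.56 ± 0.28 on K12 (adjusted p = 2.21e-04). The difference between both ageing changes was not called (-0.84 ± 0.44, adjusted p = 0.288). Of the genes sharing exon bases with sod-3 on the other strand, lido-1 was at -0.41 ± 0.14 on tnaA and -0.33 ± 0.12 on K12, calls lost under 6 and 8 of 19 alternatives and of the opposite sign with library-size scaling (0.06 on tnaA and 0.09 on K12), and C08A9.3 had 28 reads in all libraries together.

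The extracellular dismutase gene sod-4 had the smallest p of the 8 members in both ageing comparisons. Late worms had 56.9 and 52.1 CPM on tnaA, 53.7 and 51.4 CPM as ahr-1 mutants, and 51.3 and 51.5 CPM on K12. Early worms had 15.0 and 14.5 CPM on tnaA and 14.0, 13.9 and 13.6 CPM on K12. The ahr-1 libraries overlapped those of both other late groups, and no late library came near an early one. The rise was 3.71-fold on tnaA (log2 1.89 ± 0.08, edgeR adjusted p = 2.93e-10) and 3.72-fold on K12 (log2 1.90 ± 0.07, adjusted p = 1.04e-10). The opposite-strand gene ctr-9, which shares exon bases with sod-4, rose by 0.29 ± 0.06 on tnaA and by 0.32 ± 0.05 on K12 on the log2 scale.

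The minor cytosolic gene sod-5, known to be raised in the dauer larva, was close to absent in early worms. Late libraries held 23 and 9 reads on tnaA, 21 and 25 reads in ahr-1 mutants and 13 and 17 reads on K12, which is 0.744 to 1.85 CPM. Early libraries held 3 and 0 reads on tnaA and 1, 1 and 2 reads on K12, which is 0 to 0.233 CPM. Each late library had more sod-5 CPM than any early library. The ratio of late to early reads, scaled for depth, was 10.1 on tnaA (exact 95% counting interval 3.15 to 51.3, 32 against 3 reads) and 8.23 on K12 (2.90 to 32.2, 30 against 4 reads). These intervals cover counting error only. The edgeR test called the rise on tnaA (adjusted p = 0.00194) and on K12 (adjusted p = 0.00173).

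Among the catalases, ctl-3 rose on both diets, ctl-1 passed the test on K12 and ctl-2 on tnaA. For ctl-3, late worms had 12.6 and 11.3 CPM on tnaA, 15.0 and 13.5 CPM as ahr-1 mutants and 11.4 and 9.26 CPM on K12, while early worms had 5.20 and 5.88 CPM on tnaA and 3.92, 4.65 and 5.84 CPM on K12. Late and early libraries did not overlap. The rise was 2.18-fold on tnaA (log2 1.12 ± 0.18, edgeR adjusted p = 1.00e-04) and 2.15-fold on K12 (log2 1.104 ± 0.17, adjusted p = 4.84e-05).

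The cytosolic catalase gene ctl-1 had 2.95 and 3.40 CPM in late tnaA worms, 5.10 and 4.73 CPM in late ahr-1 worms and 3.78 and 4.60 CPM in late K12 worms. Early worms had 1.94 and 1.96 CPM on tnaA and 2.58, 3.61 and 1.79 CPM on K12. Within each diet the ages did not overlap, but one early K12 library stood above both late tnaA libraries. The log2 fold change was 0.69 ± 0.31 on tnaA (edgeR adjusted p = 0.0644) and 0.65 ± 0.26 on K12 (adjusted p = 0.0383). The call on K12 was lost under 10 of 19 alternative settings, among them DESeq2 (adjusted p = 0.0872) and leaving out late K12 replicate 3 (0.50, adjusted p = 0.225), late K12 replicate 1 (0.79, adjusted p = 0.0575), early K12 replicate 3 (0.43, adjusted p = 0.132) or early K12 replicate 1 (0.63, adjusted p = 0.0756). Leaving out late tnaA replicate 2 or either late ahr-1 library also ended it (adjusted p of 0.0502 to 0.0517). The rise on tnaA was called under 3 alternatives, which were scaling by library size and leaving out early K12 replicate 2 or early K12 replicate 3.

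The peroxisomal catalase gene ctl-2 had 55.2 and 54.4 CPM in late tnaA worms, 61.7 and 68.3 CPM in late ahr-1 worms and 39.1 and 46.2 CPM in late K12 worms. Early worms had 40.9 and 47.5 CPM on tnaA and 46.0, 47.8 and 42.1 CPM on K12. Late K12 worms lay in and just below the early range, whereas late tnaA and late ahr-1 worms lay above it. With age it rose on tnaA by 0.31 ± 0.10 (log2, edgeR adjusted p = 0.0134) and was not called on K12 (-0.09 ± 0.09, adjusted p = 0.414). The difference between both ageing changes was 0.40 ± 0.14 and was not called (adjusted p = 0.117). The call on tnaA was lost without late tnaA replicate 2, without early tnaA replicate 2, and without early tnaA replicate 2 and early K12 replicate 3 together. On the opposite strand, Y54G11A.7 shares exon bases with ctl-2 and went the other way with age, falling by 0.72 ± 0.09 on tnaA and by 0.67 ± 0.08 on K12.

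**Figure D2:**
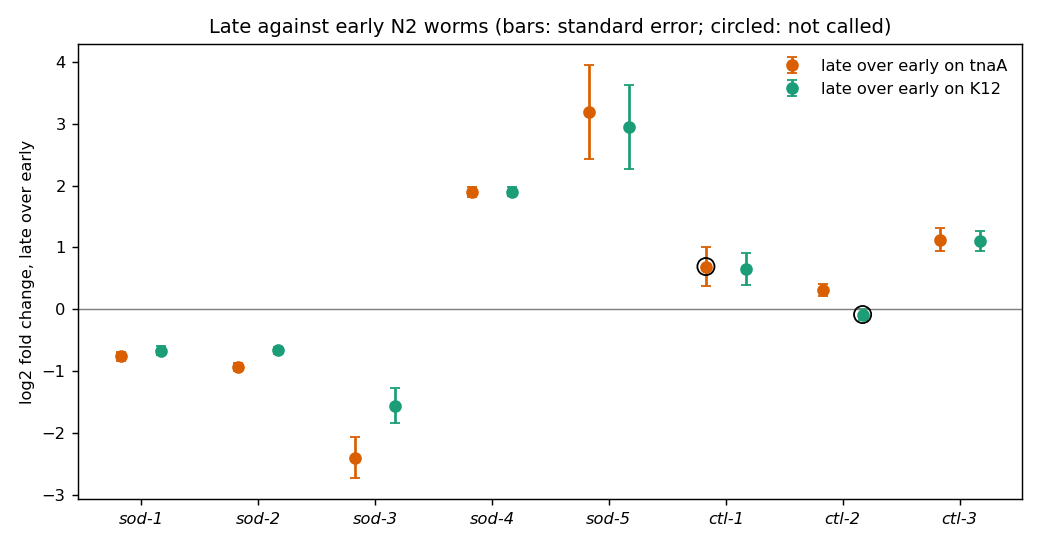
Log2 fold change of each member in late over early N2 worms (y axis) on tnaA and on K12, with the standard error as bars; circles mark values not called at an adjusted p under 0.05. sod-1, sod-2 and sod-3 lie below 0 and sod-4, sod-5 and ctl-3 above 0 on both diets, and ctl-2 is called on tnaA (0.31) and not on K12 (-0.09).

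The makeup of each enzyme family differed between late and early libraries, a description that was not tested. Extracellular sod-4 supplied 11.3 to 14.0% of the summed dismutase CPM per kb in late libraries, against 2.11 to 2.33% in early ones. The share of sod-1 was 51.7 to 57.5% in late and 59.7 to 61.4% in early libraries, and that of sod-2 was 29.9 to 33.7% in late and 35.4 to 37.3% in early libraries. No late library overlapped an early one in any of these shares. Among the catalases, ctl-3 supplied 15.2 to 20.8% in late and 7.36 to 11.6% in early libraries, and ctl-2 supplied 72.0 to 78.9% in late and 84.6 to 87.5% in early libraries.

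Summed over the 5 dismutase genes, the level was 265 ± 11.5 CPM in late tnaA worms, 268 ± 17.6 CPM in late ahr-1 worms, 279 ± 5.95 CPM in late K12 worms, 389 ± 16.2 CPM in early tnaA worms and 376 ± 6.94 CPM in early K12 worms (SD, n = 2, and 3 for early K12). Summed over the 3 catalase genes, it was 69.9 ± 1.12 CPM in late tnaA worms, 84.2 ± 3.33 CPM in late ahr-1 worms, 57.2 ± 4.04 CPM in late K12 worms, 51.7 ± 5.19 CPM in early tnaA worms and 52.7 ± 3.19 CPM in early K12 worms. On the TMM scale, the dismutase sum was thus lower in late than in early worms, and the catalase sum was highest in late ahr-1 worms. TMM scaling lowers late sums against early ones, and sums with library-size scaling were not taken. The dismutase difference and the order of the catalase sums therefore hold for the TMM scale only.

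**Figure D3:**
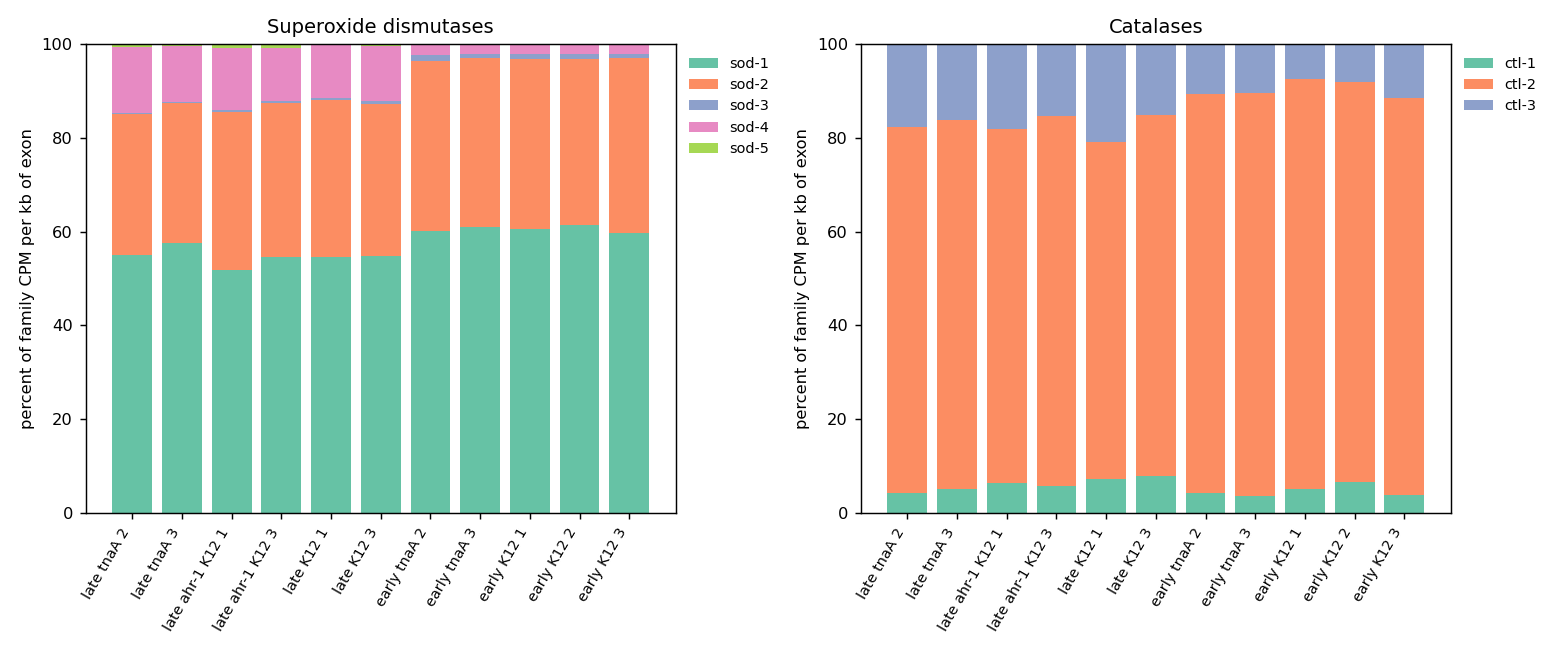
Share of each gene in the summed CPM per kb of exon of its family (y axis, percent), by library with its replicate number (x axis). The sod-4 band is 11.3 to 14.0% in late and 2.11 to 2.33% in early libraries, and the ctl-3 band is 15.2 to 20.8% in late and 7.36 to 11.6% in early libraries.

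The size of the ageing changes depended on the scaling between libraries. TMM factors were 1.14 to 1.17 in late and 0.820 to 0.877 in early libraries, and scaling by library size alone raised the median log2 fold change of all genes by 0.47 on tnaA and by 0.42 on K12. Under it, sod-1 changed by -0.29 on tnaA and -0.25 on K12 and sod-2 by -0.46 on tnaA and -0.25 on K12, all still called. Under it, too, ctl-2 was called higher on both diets (0.79 on tnaA and 0.33 on K12, adjusted p = 0.00271), the opposite direction on K12. The split over all genes then was 7848 higher and 3140 lower on tnaA, against 5394 and 5498 with TMM, and 7755 higher and 3032 lower on K12, against 4974 and 5553 with TMM.

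Tissue markers differed between the ages as well. The 8 intestine markers summed to 514 to 809 CPM in late and 2564 to 3398 CPM in early libraries, with 8 of 8 called lower on each diet. The 10 germline and oocyte markers summed to 4513 to 6752 CPM in late and 11064 to 11958 CPM in early libraries, with 10 of 10 called lower on each diet. The 6 muscle markers summed to 207 to 340 CPM in late and 2935 to 3543 CPM in early libraries (5 of 6 lower on each diet and 1 higher on tnaA), and the 6 neuron markers to 299 to 354 CPM in late and 168 to 175 CPM in early libraries (5 higher and 1 lower on each diet). The 6 hypodermis markers summed to 70.9 to 106 CPM in late and 171 to 198 CPM in early libraries (2 higher and 2 lower on each diet). Their part in the ageing changes of the members was not tested. Sperm markers, 9 of 10 found, set early tnaA replicate 2 (29.1 CPM) and early K12 replicate 3 (31.6 CPM) apart from the other early libraries. Without this pair, the calls of sod-1, sod-2, sod-3, sod-4, sod-5 and ctl-3 on both diets held.

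Between the late diets, ctl-2 and sod-2 passed the test, both close to its threshold. In late worms on tnaA against late worms on K12, 1 member was higher (ctl-2) and 1 lower (sod-2) of 8, where 10.1% of all genes were called (4.27% higher and 5.85% lower). Over all genes that is 646 higher and 886 lower, against 15 and 10 when late tnaA replicate 3 was left out, 17 and 42 when late K12 replicate 1 was, 136 and 336 when it was late tnaA replicate 2, and 268 and 459 when it was late K12 replicate 3. The peroxisomal catalase ctl-2 was 1.29-fold higher on tnaA (log2 0.36 ± 0.10, edgeR adjusted p = 0.0361), both late tnaA libraries standing above both late K12 libraries. Mitochondrial sod-2 was 0.860 times the K12 level (log2 -0.22 ± 0.06, adjusted p = 0.0497), again with no overlap between the libraries. Both calls were lost under DESeq2 and under a replicate block. That of sod-2 was lost under 13 of 19 alternatives, with adjusted p from 0.0290 to 0.325 over all of them, and it was lost when any library of the tnaA and K12 groups, late or early, was left out. That of ctl-2 was lost under 5, including DESeq2 (0.34, adjusted p = 0.0663) and leaving out late tnaA replicate 2 (0.34), late tnaA replicate 3 (0.37) or late K12 replicate 1 (0.24, adjusted p = 0.335).

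The other members did not pass the test between late tnaA and late K12 worms. The values were -0.72 ± 0.36 for sod-3 (edgeR adjusted p = 0.223), -0.41 ± 0.28 for ctl-1, 0.39 ± 0.54 for sod-5, 0.22 ± 0.17 for ctl-3, 0.09 ± 0.07 for sod-4 and -0.05 ± 0.08 for sod-1. Late tnaA and late K12 libraries of sod-3, sod-4 and ctl-1 did not overlap either, though none of these genes was called. How many of all genes lacked overlap between the libraries of 2 late groups was not counted. The median over the 8 members was 0.02, against 0.06 over all genes tested. In the same comparison dpt-1, the opposite-strand partner of sod-2, was lower (log2 -0.19 ± 0.06, edgeR adjusted p = 0.0479, a call lost under 13 of 19 alternatives, among them leaving out any library of the N2 groups), and Y54G11A.7, that of ctl-2, was not called (0.05 ± 0.09). All 10 germline and oocyte markers were called lower in late tnaA than in late K12 worms, where 5.85% of all genes were. They summed to 4748 to 4977 CPM on tnaA and 6358 to 6752 CPM on K12. Over all genes, calls lower fell from 886 to 10 without late tnaA replicate 3, to 42 without late K12 replicate 1 and to 21 under a replicate block. The marker calls in those fits are not given here. Of the 8 intestine markers, 1 was called higher, with sums of 803 to 809 CPM on tnaA and 514 to 681 CPM on K12. The 6 neuron markers summed to 348 to 354 CPM on tnaA and 311 to 316 CPM on K12, with 1 called higher, and the 6 muscle markers to 207 to 213 CPM on tnaA and 247 to 260 CPM on K12, with 0 called. The 6 hypodermis markers overlapped (86.4 to 101 CPM on tnaA and 100.04 to 106 CPM on K12, 1 called lower), as did the sperm markers (15.8 to 19.8 CPM on tnaA and 16.1 to 17.1 CPM on K12, 0 of 7 called). The part of these markers in the changes of ctl-2 and sod-2 was not tested.

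In late ahr-1 mutants on K12 against late N2 worms on K12, ctl-2 alone was called, and it was higher. That is 1 of 8 members higher and 0 lower, where 24.4% of all genes were called (12.3% higher and 12.2% lower). Over all genes that is 1855 higher and 1840 lower, against 670 and 740 when late K12 replicate 1 was left out, 1016 and 963 when late ahr-1 replicate 1 was, and 1097 and 1209 when late K12 replicate 3 was. Its level was 65.0 ± 4.67 CPM in ahr-1 mutants and 42.7 ± 4.99 CPM in N2 worms (SD, n = 2 each). The rise was 1.53-fold (log2 0.61 ± 0.10, edgeR adjusted p = 0.00102), with both mutant libraries above both N2 libraries. The call held under all 19 alternatives, with log2 fold changes of 0.49 to 0.73 and adjusted p up to 0.0199. In the authors' deposited table of this comparison, which lists 2071 genes, ctl-2 was the only member listed, with a log2 fold change of 0.55 (standard error 0.12, adjusted p = 1.90e-04). Y54G11A.7 on the opposite strand was lower in the mutants (log2 -0.30 ± 0.09, edgeR adjusted p = 0.0348), a call lost under 6 of 19 alternatives, namely DESeq2, a fit of the 2 groups alone, and leaving out any of their 4 libraries. None of the 8 members was listed in the authors' deposited table of the late diet comparison, which lists 1380 genes and runs K12 over tnaA.

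The neighbouring catalase ctl-3 was 1.38-fold higher in ahr-1 mutants without passing the test (log2 0.46 ± 0.16, edgeR adjusted p = 0.0575), and passed it under 4 of 19 alternatives. These were the stricter filter on low counts (adjusted p = 0.0499), leaving out early K12 replicate 1 (0.0398) or early K12 replicate 3 (0.0336), and leaving out early tnaA replicate 2 and early K12 replicate 3 together (0.0415). Both mutant libraries had more ctl-3, sod-5 and ctl-1 CPM than both N2 libraries, a description without the share of all genes for which this held, which was not counted. Neither sod-5 nor ctl-1 was called by edgeR (log2 1.02 ± 0.53 with adjusted p = 0.182 for sod-5, and 0.23 ± 0.27 with adjusted p = 0.588 for ctl-1). The values of sod-1 (-0.11 ± 0.08), sod-2 (-0.05 ± 0.06), sod-3 (-0.10 ± 0.33) and sod-4 (0.03 ± 0.07) did not pass the test (adjusted p of 0.346 to 0.864), and their libraries overlapped. The median over the members was 0.13, against 0.00 over all genes tested.

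Tissue markers moved in this comparison too. Sperm markers summed to 30.9 to 36.7 CPM in late ahr-1 libraries and 16.1 to 17.1 CPM in late K12 libraries, with 4 of 7 tested called higher. Germline and oocyte markers summed to 4513 to 5394 CPM in ahr-1 mutants and 6358 to 6752 CPM in N2 worms. Of these, 10 of 10 were called lower, where 12.2% of all genes were. Intestine markers summed to 724 to 732 CPM in ahr-1 mutants and 514 to 681 CPM in N2 worms, with 2 of 8 called higher and 1 lower. Hypodermis markers summed to 70.9 to 72.5 CPM in ahr-1 mutants and 100.04 to 106 CPM in N2 worms, with 3 of 6 called lower. Of the 6 neuron markers, 1 was called higher and 3 lower, with overlapping sums (299 to 311.1 CPM in ahr-1 mutants and 311.1 to 316 CPM in N2 worms). Of the 6 muscle markers, 2 were called higher and 0 lower, again with overlapping sums (245 to 340 CPM in ahr-1 mutants and 247 to 260 CPM in N2 worms). The part of these markers in the rise of ctl-2 was not tested.

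Both late comparisons share the late K12 libraries, so the ctl-2 values of 0.61 in ahr-1 mutants and 0.36 on tnaA are not independent. Set against each other directly, late ahr-1 worms on K12 and late N2 worms on tnaA showed 0 of 8 members called by edgeR, where 19.2% of all genes were called and 5005 genes had an unadjusted p under 0.05. DESeq2 also called 0 members. Over all genes that is 1410 higher and 1501 lower, against 584 and 775 when late tnaA replicate 3 was missing, 826 and 822 when it was late tnaA replicate 2, 816 and 792 when it was late ahr-1 replicate 3, and 759 and 867 under a replicate block. The largest values were 0.64 ± 0.29 for ctl-1 (adjusted p = 0.139), 0.63 ± 0.53 for sod-5 (adjusted p = 0.443) and 0.61 ± 0.37 for sod-3 (adjusted p = 0.274). For ctl-2 the difference was 0.25 ± 0.10 (adjusted p = 0.0951) and for sod-2 it was 0.17 ± 0.07 (adjusted p = 0.0979), with libraries that did not overlap in either gene. The libraries of sod-3, sod-5, ctl-1 and ctl-3 did not overlap either. The share of all genes without overlap was not counted for this comparison, so the lack of overlap is a description only.

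**Figure D4:**
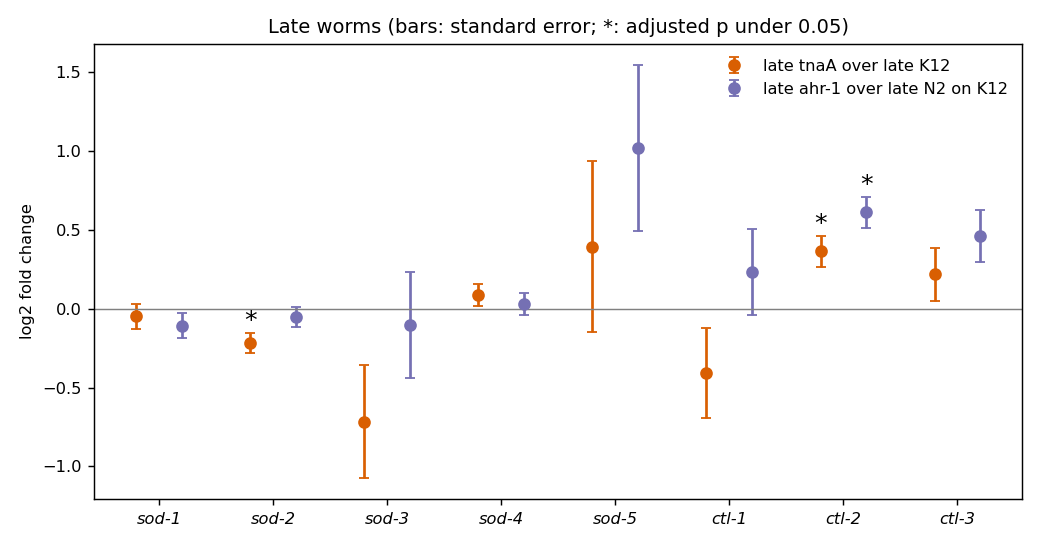
Log2 fold change of each member in late worms (y axis) for tnaA over K12 and for ahr-1 over N2 on K12, with standard errors as bars and asterisks at an adjusted p under 0.05. ctl-2 is called in both (0.36 and 0.61) and sod-2 on tnaA (-0.22); both comparisons share the late K12 libraries.

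**Figure D5:**
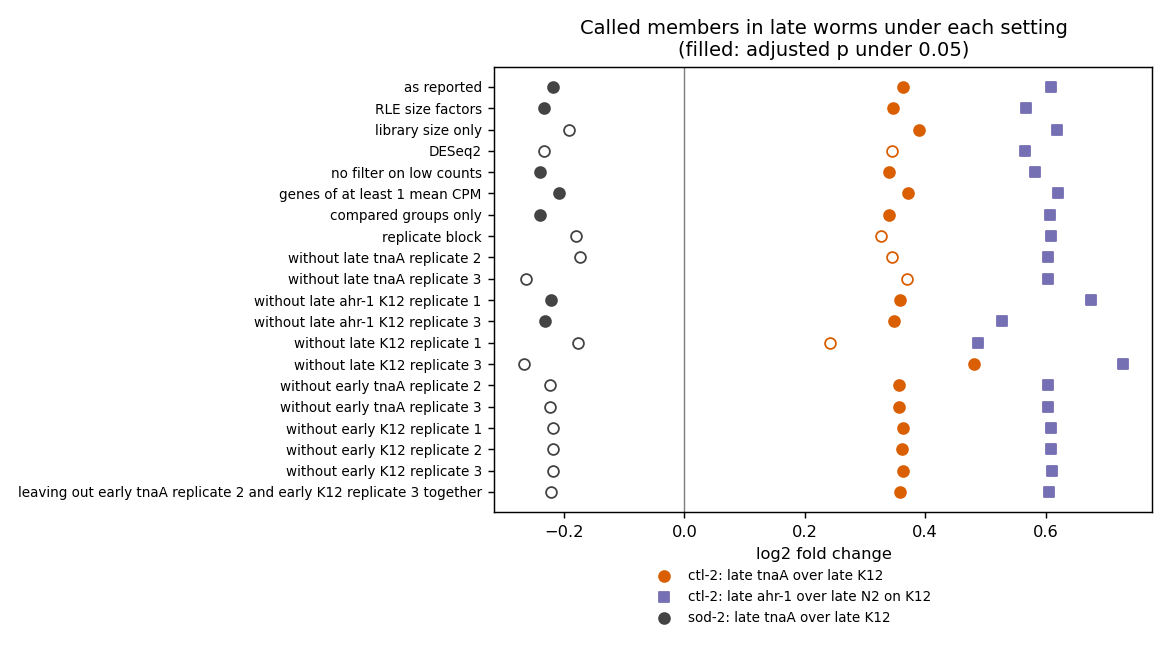
Log2 fold change (x axis) of ctl-2 and sod-2 in late worms as reported and under each of 19 alternative settings (y axis); filled points are called at an adjusted p under 0.05. The ctl-2 values in ahr-1 mutants are filled throughout (0.49 to 0.73), whereas those of sod-2 and ctl-2 on tnaA lose the call under 13 and 5 settings.

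Early worms on tnaA and on K12 showed no called member. By edgeR 0 of 8 passed, where 0.0661% of all genes were called and 1143 genes had an unadjusted p under 0.05, and DESeq2 called 0 members. Over all genes that is 8 higher and 2 lower, against 18 and 187 without early K12 replicate 1, 35 and 8 without early K12 replicate 3, 14 and 1 without early tnaA replicate 2, 4 to 10 higher and 0 to 4 lower with any other single library left out, and 171 and 274 with no filter on low counts. Adjusted p-values ran from 0.856 to 0.997. The widest value was -0.45 ± 0.30 for ctl-1, whose early K12 libraries spread from 1.79 to 3.61 CPM. The abundant genes had smaller standard errors, with 0.05 ± 0.07 for sod-1, 0.05 ± 0.06 for sod-2 and -0.04 ± 0.09 for ctl-2. Both early tnaA libraries of sod-4 stood above all 3 early K12 libraries, by 0.10 ± 0.09 (adjusted p = 0.953).

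The difference between the ageing changes on tnaA and on K12 was called by edgeR for 0 of 8 members, where 2.41% of all genes were called and 3216 genes had an unadjusted p under 0.05, and DESeq2 called 0. Over all genes that is 147 higher and 217 lower, against 1 and 2 without late tnaA replicate 2, 4 and 3 without late tnaA replicate 3, 3 and 2 without early tnaA replicate 3, 9 and 21 without early tnaA replicate 2, and 7 and 13 without early K12 replicate 2. The counts were 13 and 24 (replicate 1) and 11 and 11 (replicate 3) when a late K12 library was missing, 43 and 47 without early K12 replicate 3, 6 and 4 under a replicate block, and 264 to 429 higher and 289 to 484 lower without early K12 replicate 1 or either late ahr-1 library. The values nearest to a call were -0.26 ± 0.09 for sod-2 (adjusted p = 0.103) and 0.40 ± 0.14 for ctl-2 (adjusted p = 0.117).

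Genes that act beside these enzymes were followed as fixed lists. Of all genes tested, 35.6% were called higher and 36.3% lower with age on tnaA, and 32.9% and 36.7% on K12. For late tnaA over late K12 the shares were 4.27% higher and 5.85% lower, and for late ahr-1 over late N2 12.3% and 12.2%. The late diet calls over all genes fell to 15 higher and 10 lower without late tnaA replicate 3. Of 11 tested peroxiredoxin, thioredoxin and related reductase genes, 3 rose and 6 fell with age on each diet, with a median log2 fold change of -0.39 on tnaA and -0.23 on K12 (0.02 and -0.04 over all genes tested, here and for each list that follows). Methionine sulfoxide reductase gene msra-1 fell by 3.63 ± 0.13 on tnaA and fell by 3.22 ± 0.12 on K12 (log2), and the mitochondrial peroxiredoxin gene prdx-3 by 1.08 ± 0.07 and 0.81 ± 0.06. The thioredoxin gene trx-3 rose by 4.46 ± 0.29 on tnaA, where late worms averaged 49.8 CPM and early worms 2.22 CPM. With scaling by library size the split became 5 higher and 3 lower on tnaA and 6 higher and 3 lower on K12, and the list's median changed sign on both diets. Between the late groups, 1 rose and 2 fell for tnaA over K12, and 0 rose and 1 fell for ahr-1 over N2.

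Of 16 glutathione peroxidase, glutathione synthesis and glutaredoxin genes, 2 rose and 10 fell with age on tnaA, and 1 rose and 11 fell on K12 (medians of -0.47 on each diet). With scaling by library size, 5 rose and 7 fell on tnaA and 6 rose and 7 fell on K12, and the median on tnaA changed sign. Glutathione reductase gene gsr-1 fell by 1.32 ± 0.06 on tnaA and by 0.98 ± 0.05 on K12. The difference between these changes stood at the threshold (-0.34 ± 0.08, edgeR adjusted p = 0.0478), and the call was lost under 11 of 19 alternatives (adjusted p of 0.00227 to 0.182 over all of them), among them leaving out any library of the N2 groups other than early K12 replicate 1. In late worms gsr-1 was lower on tnaA than on K12, with means of 144 CPM on tnaA and 172 CPM on K12 (log2 -0.26 ± 0.06, edgeR adjusted p = 0.0196), a call lost under a replicate block and without any of the 4 libraries compared (adjusted p of 0.0599 to 0.133). For this list 1 gene rose and 1 fell for tnaA over K12 in late worms, and 0 rose and 4 fell for ahr-1 over N2.

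Peroxisomal oxidases, which release the hydrogen peroxide that catalase removes, mostly fell with age. Of 11 tested, 3 rose and 7 fell on tnaA (median -1.31), and 1 rose and 7 fell on K12 (median -1.502). With scaling by library size, 4 rose and 7 fell on tnaA and 3 rose and 7 fell on K12. In late worms, acyl-CoA oxidase gene acox-3 (F58F9.7) was higher both on tnaA and in ahr-1 mutants than in N2 worms on K12. Means were 46.2 CPM on tnaA, 61.8 CPM in ahr-1 mutants and 32.2 CPM in N2 worms on K12. The log2 fold change was 0.53 ± 0.09 on tnaA (edgeR adjusted p = 0.00797) and 0.94 ± 0.09 in ahr-1 mutants (adjusted p = 4.99e-05). The call on tnaA was lost under 4 of 19 alternatives, among them leaving out either late tnaA library or late K12 replicate 1. Of the 11 oxidase genes, 3 were called higher and 0 lower for tnaA over K12, and 2 higher and 2 lower for ahr-1 over N2. Acyl-CoA oxidase gene acox-1.5 (C48B4.1) fell in ahr-1 mutants by 1.26 ± 0.21. Of 11 peroxisome assembly genes, 5 rose and 3 fell on tnaA and 2 rose and 2 fell on K12 with age (medians of 0.29 and 0.13), against 8 and 1 on tnaA and 9 and 0 on K12 with scaling by library size. The assembly gene prx-11 was higher both in late tnaA worms (0.57 ± 0.14, edgeR adjusted p = 0.0273) and in late ahr-1 mutants (0.63 ± 0.14, adjusted p = 0.00671). Its call on tnaA was lost under 5 of 19 alternatives, among them leaving out any of the same 3 libraries. Its call in ahr-1 mutants was lost without late ahr-1 replicate 1 or late K12 replicate 1. For this list, 2 genes rose and 1 fell on tnaA over K12, and 2 rose and 2 fell in ahr-1 over N2.

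Of 7 tested genes for copper and manganese supply, 1 rose and 5 fell with age on each diet (2 and 4 with scaling by library size). The medians were -1.004 on tnaA and -0.70 on K12. The dismutases use both metals, but whether these genes serve the dismutases was not tested. The copper chaperone gene cuc-1 fell by 1.05 ± 0.09 on tnaA and by 0.70 ± 0.08 on K12. In late ahr-1 mutants, the divalent metal transporter genes smf-3 and smf-1 were higher (1.21 ± 0.22 and 0.60 ± 0.10, edgeR adjusted p = 0.00229 and 0.00148), and 0 of 7 genes were called between the late diets. Of 9 genes for oxidant-producing dual oxidases and extracellular peroxidases, 3 rose and 5 fell with age on tnaA (median -0.25), and 1 rose and 5 fell on K12 (median -0.81). With scaling by library size these were 4 and 3 on tnaA, where the median changed sign, and 2 and 4 on K12. The dual oxidase gene duox-2 rose on both diets, with 6.51 CPM in late and 0.122 CPM in early worms on tnaA, and 3.57 CPM in late and 0.160 CPM in early worms on K12. Between the late groups, 1 gene rose and 0 fell for tnaA over K12, and 0 rose and 1 fell for ahr-1 over N2.

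Of 17 regulators of antioxidant genes, 14 rose and 3 fell on tnaA and 12 rose and 3 fell on K12 with age (medians of 0.62 and 0.51), against 14 and 2 on tnaA and 14 and 1 on K12 with scaling by library size. The p38 pathway kinase genes pmk-1 (1.43 ± 0.09 on tnaA and 1.12 ± 0.08 on K12) and sek-1 (1.35 ± 0.07 and 1.15 ± 0.06) were among those that rose, and the phosphatase gene daf-18 fell by 0.94 ± 0.07 on tnaA and by 0.72 ± 0.06 on K12. The transcription factor gene daf-16, named here after its values were seen, rose by 0.55 ± 0.09 on tnaA and by 0.35 ± 0.08 on K12. The activity of DAF-16 was not measured, and its part in the change of sod-3 was not tested. In late ahr-1 mutants, the kinase gene pdk-1 rose by 0.79 ± 0.11 (edgeR adjusted p = 4.51e-04), and daf-16 was not called (0.12 ± 0.09). For this list, 3 genes rose and 2 fell on tnaA over K12, and 2 rose and 0 fell in ahr-1 over N2.

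The genes most like each member in log2(CPM + 1) were ranked by Pearson's r across the 11 libraries, in which late and early libraries form separate clusters for 6 of the 8 members. Pearson's r describes these libraries only, which share age and diet, and Pearson's r over 0.95 with sod-2 was found for 2385 of 9396 genes averaging 5 CPM or more. For sod-2 the nearest were vdac-1, a mitochondrial outer membrane channel gene, and the proteasome subunit genes pas-1 and pas-3 (r = 0.997 each). For sod-1 they were nhr-71, F32A11.1 and pcp-2 (r = 0.996 to 0.995). For sod-4 they were R07C12.1, rrf-2 and H01G02.1 (r = 0.999 to 0.998), and for sod-3 prde-1, T22C1.4 and mct-5 (0.994 to 0.988).

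The late and early libraries of ctl-2 overlapped, and its nearest genes were few. The genes with r over 0.95 were 3, namely maoc-1 (0.963), dhs-18 (0.953) and fust-1 (0.952). maoc-1 encodes an enzyme of peroxisomal fatty acid oxidation. For ctl-1 no gene passed 0.95, and the nearest were attf-3, Y53G8B.2 and ZK742.4 (0.912 each). For ctl-3 they were ccg-1, dod-23 and pqn-15 (0.992 to 0.981), and for sod-5, whose early libraries hold few reads, acin-1, lin-38 and C06A6.2 (0.992 to 0.988). Most of these names depended on the measure. Among the 3 nearest by Spearman's rank correlation, those kept were pas-3 for sod-2, prde-1 for sod-3, rrf-2 for sod-4, acin-1 for sod-5, and maoc-1 and fust-1 for ctl-2. For sod-1, ctl-1 and ctl-3 none was kept.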

How the data were processed

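The authors deposited the raw read counts per gene of each of 11 whole-worm libraries; the submitters' processing notes name the tools Trim Galore, STAR, HTSeq 0.6.1p2 and DESeq2. The sources used here give no genome build, annotation or strand setting. A pair of tables deposited by the authors holds log2 fold changes and p-values (DESeq2, per those notes) for the late comparisons; their 8 columns of normalised values per sample were not used. Exon lengths, neighbours and overlaps come from Ensembl release 115 (WBcel235).

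All 11 libraries entered a single edgeR 4.0.16 model (R 4.3.3) with a mean per group, TMM scaling and 6 residual degrees of freedom. It covered the 15133 genes kept by filterByExpr at its minimum count of 10, all 8 members among them. Tests are two-sided quasi-likelihood F tests for 7 comparisons, with Benjamini-Hochberg adjustment across the whole set of genes; "called" means an adjusted p below 0.05. A standard error is the size of the log2 fold change over the square root of F. The model was checked on simulated data. Alternatives were RLE size factors, library size, DESeq2 1.42.0, 2 other filters on low counts, the compared groups alone, a replicate block, and each library left out.

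Groups come from sample titles. The members and gene lists were chosen with earlier results of these data known, and an alternative without early tnaA replicate 2 and early K12 replicate 3 was added after seeing the data. Beside the members and ahr-1, the text names the genes that share exon bases with a member, daf-16, genes among the up to 4 called genes with the smallest p of each list and comparison, and the 3 genes nearest to each member. Of the oxidase list, acox-1.1 and acox-2 were not matched.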

Additional observations from a re-analysis of the deposited data

How the results depend on the processing

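The ageing calls of sod-1, sod-2, sod-3, sod-4, sod-5 and ctl-3 on both diets, and that of ctl-2 in ahr-1 mutants, held under every alternative tried (19, or 18 for sod-5). Members called higher in late tnaA over late K12 worms (1 as reported) were 0 with DESeq2 and with a replicate block, and 0 to 1 with a library left out; members called lower (1 as reported) were 0 with library-size scaling, DESeq2, a replicate block and without early tnaA replicate 2 and early K12 replicate 3 together, and 0 to 1 with a library left out. Members called higher in ahr-1 mutants (1) were 2 with genes of at least 1 mean CPM and without that pair of early libraries, and 1 to 2 with a library left out. With the compared groups alone, 1 member (sod-2) was called lower in the difference between ageing changes. The causes were not tested.

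These log2 fold changes, none of them called as reported, changed sign. With library-size scaling, ctl-2 in late over early K12 worms was 0.33, and sod-4 in the difference between ageing changes 0.0488. With RLE factors sod-4 in ahr-1 over N2 was -0.00956, and with DESeq2 -0.00944. In the difference between ageing changes, ctl-3 was -0.000978 with RLE, -0.00489 with DESeq2, -0.00664 with no filter and -0.0058 with the compared groups alone, and sod-4 was 0.00244 with genes of at least 1 mean CPM. Under the replicate block sod-5 was -0.11 in both tnaA over K12 comparisons and ctl-1 was -0.0618 in the difference between ageing changes. Without early tnaA replicate 2 and early K12 replicate 3 together, tnaA over K12 in early worms was -0.15 for sod-3, -3.32 for sod-5 and 0.0167 for ctl-2, and the difference between ageing changes was 0.0343 for sod-4 and -0.238 for ctl-3. With 1 library left out at a time, the values that changed sign ran as follows. For late tnaA over late K12, sod-1 ran from -0.136 to 0.0339. For late ahr-1 over late N2, sod-3 ran from -0.344 to 0.168 and sod-4 from -0.00335 to 0.0581. For late over early on K12, ctl-2 ran from -0.214 to 0.0254. For early tnaA over early K12, sod-1 ran from -0.0146 to 0.0988, sod-3 from -0.0676 to 0.291, sod-5 from -3.66 to 1.05 and ctl-2 from -0.152 to 0.0698. For late ahr-1 over late tnaA, sod-1 ran from -0.172 to 0.0497 and sod-4 from -0.117 to 0.0136. For the difference between ageing changes, sod-4 ran from -0.0817 to 0.048, sod-5 from -0.662 to 4.05, ctl-1 from -0.247 to 0.255 and ctl-3 from -0.149 to 0.173.

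Whether the replicate numbers pair the libraries could not be settled. Deviations of 16 same-numbered pairs correlated at -0.55 to 0.15, 2 of them over 0.1, both between late and early tnaA worms. In a group of 2 libraries the deviations mirror each other, so these are not 16 separate values. Under the replicate block, calls over all genes fell to 25 higher and 21 lower for late tnaA over late K12, against 646 and 886. In ahr-1 over N2 on K12, 670 to 2030 genes were called higher and 740 to 1911 lower with 1 library left out, against 1855 and 1840. DESeq2 called 314 higher for late tnaA over late K12, and 41 higher and 46 lower for early tnaA over early K12 (8 and 2 with edgeR). Without early tnaA replicate 2, sod-5 has 0 reads in early tnaA worms, so that its fitted values there depend on the prior count. Low read numbers limit sod-3, sod-5 and ctl-1.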
